A study of Mus musculus with 4 samples.

Results

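Mt1 and Mt2 encode the 2 widely expressed metallothioneins of the mouse and are 2 of the 31053 genes in the deposited matrices. They were picked by symbol because both were higher in APC-KO than in WT Paneth cells of these same libraries, so their values in Paneth cells are given as a description with no test. TOM+ cells sorted from duodenal crypts were profiled by single-cell RNA sequencing (10x Genomics 3′ v3.1), with 2 libraries per genotype. WT mice were Atoh1CreER-T2;R26RTom. APC-KO mice carried floxed Apc alleles in addition, and the sample labels give their driver as Atoh1Cre where the series' design text gives Atoh1CreER-T2. Every group received 2 intraperitoneal doses of 1 mg/mL tamoxifen 24 h apart and was harvested 12 h later, so the WT cells were exposed to tamoxifen and Cre as well. Atoh1 is a transcription factor of the secretory lineage, and the TOM sort limits the libraries to cells in which the reporter had been switched on and to their progeny. The labels name no animal, sex or batch per library. The p-values below therefore rest on 2 libraries per genotype, whose spread may be technical. In edgeR and DESeq2 that spread is partly pooled over genes, so a small p does not mean that the libraries of a gene agree.

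Metallothioneins are small cysteine-rich proteins of the cytoplasm that bind zinc and copper and buffer the free metal in the cell. The zinc sensor MTF-1, encoded by Mtf1, binds metal response elements in the promoters of Mt1 and Mt2 and raises their transcription when zinc rises. Glucocorticoids, oxidants and inflammatory cytokines also induce both genes. Paneth cells of the small intestine hold zinc in their secretory granules, and enterocytes take up dietary zinc.

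Mt1 (ENSMUSG00000031765) and Mt2 (ENSMUSG00000031762) lie side by side on the + strand of chromosome 8 in GENCODE vM21 (GRCm38). Mt2 spans chr8:94172664-94173568 and Mt1 chr8:94179082-94180327, with 5513 bases between them. Their main transcripts, Mt1-201 and Mt2-201, share no run of bases longer than 20, and no other gene shares a run of 60 bases with either, so reads of the 2 genes can be told apart. An antisense gene overlaps Mt2 over 749 bases and had 6 UMIs in all kept cells; the strand used in counting is not stated. The sequences upstream of both start sites are shown because metal response elements are the best known control sites of these genes. They come from RefSeq promoter windows (GRCm38.p6, + strand), which hold 250 bases before and 50 after the start. The stretch printed for Mt1 is chr8:94178839-94179081, cut where its main transcript begins, and that for Mt2 is chr8:94172368-94172617. Capitals mark matches to the metal response element core, TGCACNC or TGCGCNC, on either strand.
Mt1: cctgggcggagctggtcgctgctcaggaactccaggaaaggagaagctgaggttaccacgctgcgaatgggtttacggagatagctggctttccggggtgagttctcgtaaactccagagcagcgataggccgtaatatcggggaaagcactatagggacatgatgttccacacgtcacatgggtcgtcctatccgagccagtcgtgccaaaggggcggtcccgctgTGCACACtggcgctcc
Mt2: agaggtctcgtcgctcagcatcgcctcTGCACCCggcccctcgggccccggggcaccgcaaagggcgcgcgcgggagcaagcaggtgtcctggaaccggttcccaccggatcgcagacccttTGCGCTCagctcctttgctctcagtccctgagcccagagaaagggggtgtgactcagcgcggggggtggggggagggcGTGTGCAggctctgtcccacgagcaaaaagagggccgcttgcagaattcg
The whole window of Mt1 held 3 matches, at -23, 3 and 21 from the RefSeq start, and that of Mt2 held 4, at -223, -128, -50 and 5. Of 32851 RefSeq windows of the same length, 25.7% held at least 1 match, 1.97% at least 3 and 0.517% at least 4. Mt3 and Mt4 had 1 match each. The antioxidant response element core TGACNNNGC was found once in Mt2, at -79, and not in Mt1, and 12.4% of windows held it. These matches describe the letters of the windows only. The transcripts Mt1-203 and Mt1-202 begin 122 and 152 bases after the RefSeq start of Mt1, and Mt2-202 begins 242 bases after that of Mt2. Bases just before these later starts lie outside the windows and were not searched.

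The authors' per-cell tables kept 4814 and 3821 cells of the WT libraries and 356 and 6243 cells of the APC-KO libraries, each with 1 of 12 cell type names, printed here as deposited. Libraries held 54230249 to 61032126 UMIs in all. APC-KO 1 stands apart: kept cells held 5.15% of its UMIs, against 37.6% to 50.3% in the others, and 9 of its types had 16 cells or fewer. Apc had 77.9 to 88.1 CPM in the 4 libraries. Reads come from the 3′ end and the sources used here do not say which exons are floxed, so this does not check the labels. Levels are UMIs of a gene per 1e6 UMIs (CPM) summed over the cells of 1 type in 1 library, and 95% intervals (exact Poisson) cover counting error only. Of the marker lists, the stem list was highest in ISC, the enterocyte list in ENTERO-PRO and the Paneth list in PANETH in every library.

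Over the kept cells 18340 UMIs of Mt1 and 4085 of Mt2 were counted, against 320 of Mt3, the form known from neurons, and 11 of Mt4, the form known from stratified epithelia. In WT, Mt1 was highest in stem and absorptive progenitor cells. ISC had 399 CPM of Mt1 in WT 1 and 270 CPM in WT 2, a mean of 335 ± 90.9 (SD, n = 2). ENTERO-PRO had 362 and 276 CPM. The ranges of these types overlapped, and both libraries of each lay above every other type. SEC-PRO followed with 187 and 107 CPM and PANETH-PRE with 99.0 and 61.8 CPM, and neighbours in the order down to this point did not overlap apart from the first pair. Below them EEC-PRE, GP, PANETH, GOBLET-PRE, EC, NON-EC, GOBLET and TUFT followed in this order of their means, each range overlapping the next. At the foot of the order, GOBLET had 22.2 and 23.4 CPM and TUFT 35.3 and 8.83 CPM. WT 1 lay above WT 2 in 11 of 12 types for Mt1 and in 10 of 12 for Mt2.

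Mt2 followed a like order in WT at a lower UMI count, which for 3′ counts does not depend on transcript length. ISC had 52.5 and 41.1 CPM of Mt2, SEC-PRO 42.8 and 20.7 CPM and ENTERO-PRO 22.4 and 34.7 CPM. SEC-PRO overlapped both ISC and ENTERO-PRO, which did not overlap each other, and all of these types lay above EEC-PRE, at 20.2 and 3.60 CPM. Every other type was at 11.4 CPM or lower, and several of these values rest on few UMIs: PANETH had 11 UMIs in WT 1 and 4 in WT 2. In APC-KO the order of the Mt1 means began with ENTERO-PRO, ISC, PANETH and PANETH-PRE, and every range overlapped the next.

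**Figure D1:**
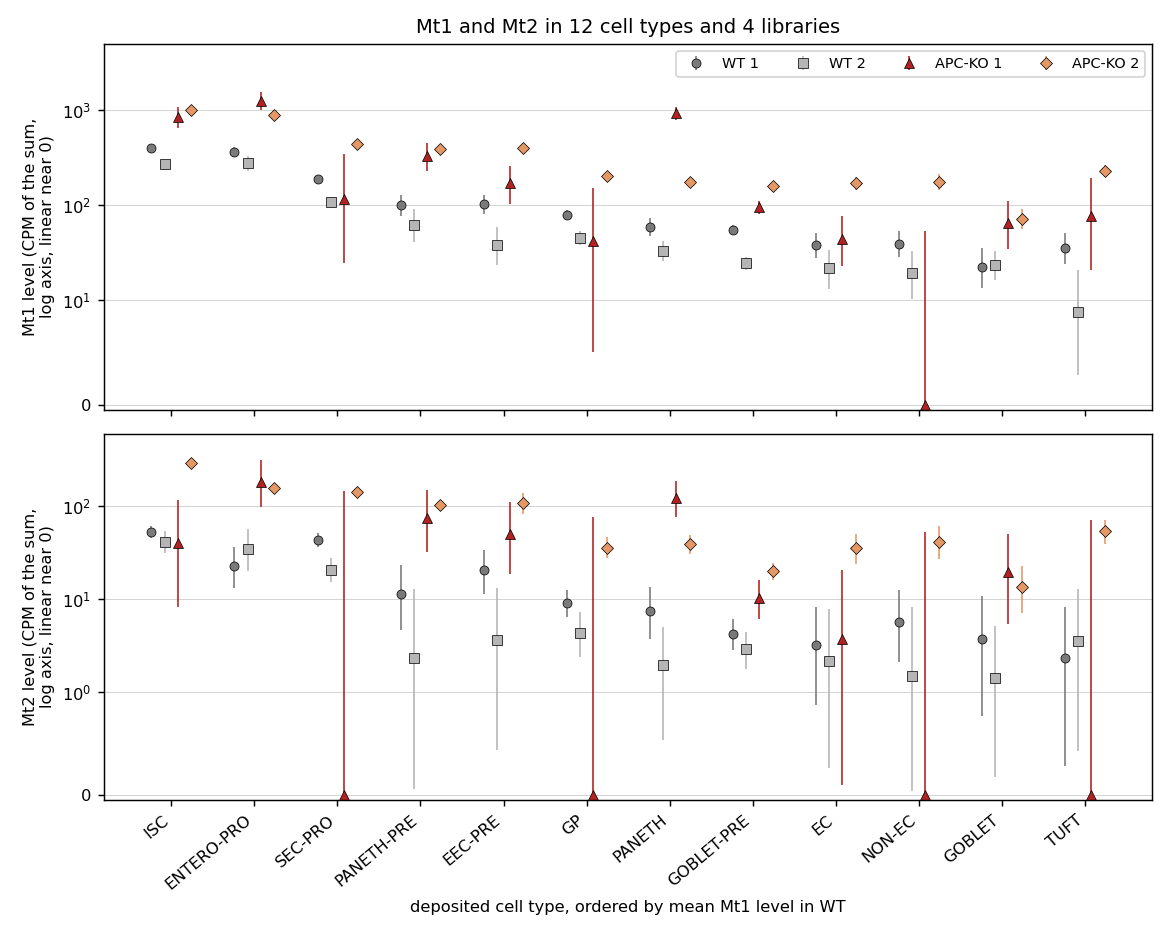
Level of Mt1 (top) and Mt2 (bottom) in CPM of summed UMIs, on an axis that is logarithmic above a small linear stretch near 0, for 12 cell types and 4 libraries; bars are exact 95% Poisson intervals. ISC and ENTERO-PRO lead in every library for Mt1 apart from PANETH of APC-KO 1 at 928 CPM, and APC-KO 2 lies above both WT libraries in all 12 types for both genes.

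The share of cells with at least 1 Mt1 UMI gave the same leading types when each cell was thinned to 2000 UMIs. In ISC it was 50.1% of 555 cells in WT 1 and 38.0% of 221 in WT 2, and in ENTERO-PRO 42.6% and 42.2%. EC had 6.52% and 4.65% and TUFT 7.51% and 2.52%. At equal depth Mt1 was thus found in a larger share of ISC and ENTERO-PRO cells than of EC or TUFT cells in both WT libraries. In APC-KO 2 the share was 78.9% of 1212 ISC cells, 69.5% of ENTERO-PRO, 19.3% of EC and 28.0% of TUFT cells. APC-KO 1 had 6 of 10 ISC cells with Mt1 after thinning and 2 of 45 EC cells, which lies below the share in both WT libraries for EC. Without thinning, ISC had 80.3%, 69.7%, 92.3% and 93.4% in WT 1, WT 2, APC-KO 1 and APC-KO 2.

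**Figure D2:**
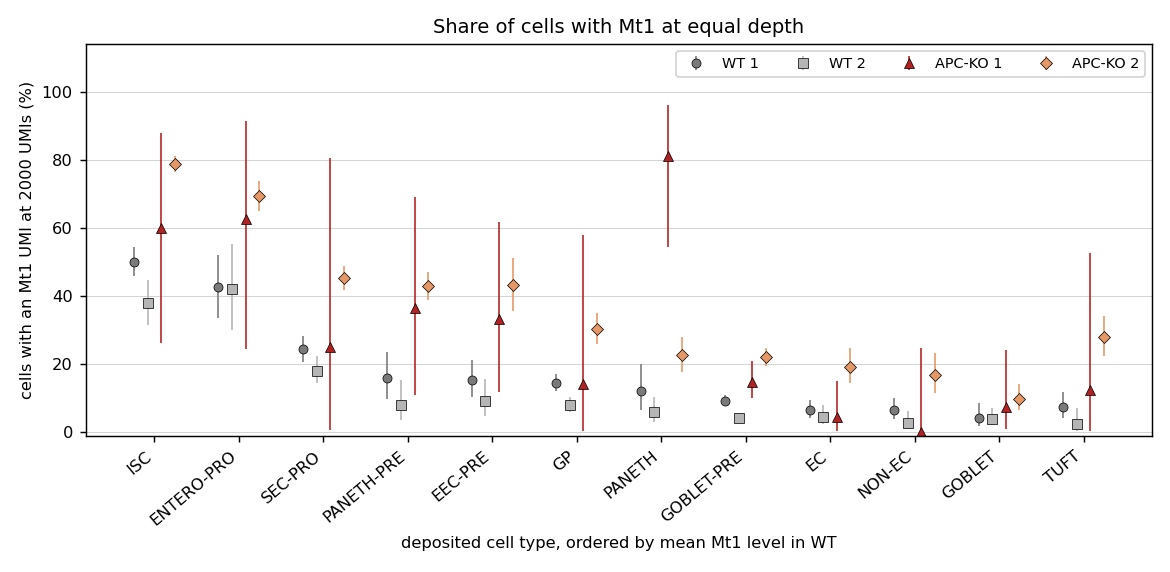
Percent of cells with an Mt1 UMI after each cell was thinned to 2000 UMIs, by cell type and library, with exact binomial 95% intervals. APC-KO 2 lies above both WT libraries in all 12 types, and the wide bars of APC-KO 1 reflect its few cells.

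In the Paneth lineage, whose genotype contrast chose both genes, all APC-KO values lay above all WT values. PANETH had 58.9 and 32.9 CPM of Mt1 in WT, 928 CPM in APC-KO 1 and 173 CPM in APC-KO 2. PANETH-PRE had 99.0 and 61.8 CPM in WT, 326 CPM in APC-KO 1 and 387 CPM in APC-KO 2. For Mt2, PANETH had 7.45, 1.93, 122 and 38.5 CPM and PANETH-PRE 11.4, 2.29, 74.6 and 102 CPM in the same order of libraries. In PANETH the APC-KO libraries thus lay far apart, with APC-KO 1 the higher, and in PANETH-PRE close together. With PANETH and PANETH-PRE summed, edgeR gave a log2 fold change of 2.77 (SE 0.52) for Mt1 and 3.39 (SE 0.48) for Mt2, where 0.663% of the 8599 genes tested passed in either direction, 0.244% as higher, and 20.6% had both APC-KO libraries above both WT libraries. TMM scaling matters here, since the median gene of this lineage shifted by 0.50 (log2) with plain CPM and by 0.00 in the fit, and the shift was between -0.19 and 0.17 in every other fit. After it, Mt1 stood at 85.8 and 45.3 CPM in the WT libraries and at 719 and 209 CPM in APC-KO.

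The values of APC-KO 1 rest on few cells. Of its 168 Mt1 UMIs in 16 PANETH cells, 74 came from 1 cell, and the level without that cell was 734 CPM. In its 11 PANETH-PRE cells, 22 of 35 UMIs came from 1 cell, and the level was 137 CPM without it, still above the WT libraries. After thinning, 13 of its 16 PANETH cells had an Mt1 UMI (81.2%), against 22.6% of 274 cells in APC-KO 2 and 12.3% and 6.0% in WT. Without APC-KO 1 the Mt1 log2 fold change of the lineage was 1.65. The summed enterocyte markers, of which 8 of 9 were detected, stood at 1641 CPM in the PANETH cells of APC-KO 1, at 583 CPM in APC-KO 2 and at 240 and 217 CPM in WT. The summed Paneth markers were at 320310 and 276490 CPM in APC-KO and at 404070 and 387090 CPM in WT. Median mitochondrial shares of PANETH cells were 1.04% and 1.07% in WT, 4.57% in APC-KO 1 and 2.25% in APC-KO 2, and their median UMI counts were 12644, 10372, 3552 and 5954. The summed proliferation markers were at 44.7 and 25.6 CPM in WT PANETH cells, with 171 CPM in APC-KO 1 and 157 CPM in APC-KO 2. In PANETH-PRE the summed Paneth markers were at 130260 and 110890 CPM in WT, 97646 CPM in APC-KO 1 and 41344 CPM in APC-KO 2. Its stem markers were at 240 and 229 CPM in WT, 187 CPM in APC-KO 1 and 708 CPM in APC-KO 2. Its proliferation markers were at 68.2 and 75.5 CPM in WT, 159 CPM in APC-KO 1 and 175 CPM in APC-KO 2. The part of these shifts in the Mt1 and Mt2 values was not tested.

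Cells outside the Paneth lineage were not used to choose the genes, although they come from the same libraries. In these 10 types, both APC-KO libraries lay above both WT libraries in 7 for Mt1 and in 5 for Mt2. With the highest cell of each sum left out, the counts were 6 for Mt1 and 3 for Mt2. On the TMM scale of the fits, Mt1 was separated in this way in 6 of the 7 fitted types. Mt2 was separated in 4 of the 5 in which it was tested. Of all genes tested, 13.4% to 20.9% were separated. The count filter asks for enough counts in 2 libraries. In GOBLET, Mt2 had 3 and 2 UMIs in WT and met the filter through APC-KO alone. In EEC-PRE it had 15 and 2 UMIs in WT and met the filter only with APC-KO counted in. The count for Mt2 is thus partly set by the filter. APC-KO 2 exceeded both WT libraries in all 12 types for each gene. The exceptions for Mt1 were GP, SEC-PRO and NON-EC, in which APC-KO 1 had 7, 5 and 13 cells and 2, 3 and 0 UMIs. The count of 0 in NON-EC allows up to 42.8 CPM (3 counts), which is above both WT libraries.

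ISC, the stem cell class, had 844 CPM of Mt1 in APC-KO 1 and 1013 CPM in APC-KO 2, both above the 399 and 270 CPM of WT. On the TMM scale, 13.4% of the genes tested in ISC were separated in the same way. Mt1 rose by 1.51 on the log2 scale (SE 0.29, adjusted p 5.45e-05, edgeR), in a fit where 3.57% of 9792 genes passed and 2.29% rose. The call did not hold without WT 2, where the log2 fold change was 1.22. Mt2 had 39.6 CPM in APC-KO 1, from 3 UMIs with an interval of 8.16 to 116 CPM, and 292 CPM in APC-KO 2. The genotypes overlapped for Mt2, since APC-KO 1 lay below both WT libraries. edgeR called Mt2 higher nonetheless (log2 fold change 2.39, SE 0.24, adjusted p 2.11e-17). The DESeq2 Wald test gave 1.95 (SE 1.21) and no adjusted p. The rise rests on APC-KO 2, without which the difference was -0.32.

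ENTERO-PRO, the absorptive progenitors with the highest enterocyte markers, had 1251 and 888 CPM of Mt1 in APC-KO against 362 and 276 CPM in WT. The groups did not overlap, but the log2 fold change of 1.74 (SE 0.32) had an adjusted p of 0.0764 by edgeR, and 15.5% of the 6348 genes tested were separated in the same way. Mt2 stood at 183 and 158 CPM in APC-KO and at 22.4 and 34.7 CPM in WT. It rose by 2.62 on the log2 scale (SE 0.33, adjusted p 0.00340, edgeR), where 0.0788% of genes passed and 0.0473% rose. That call was lost without WT 1 (2.31) and without WT 2 (2.83), whereas Mt1 passed without APC-KO 1 (1.5) and without APC-KO 2 (1.94). Of the 89 Mt1 UMIs of APC-KO 1, 36 came from 1 of 11 cells, and the level without it was 864 CPM.

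EEC-PRE, the endocrine precursors, had 168 and 397 CPM of Mt1 in APC-KO against 102 and 37.8 CPM in WT. Mt2 was at 50.5 and 107 CPM in APC-KO and at 20.2 and 3.60 CPM in WT. Neither gene overlapped between genotypes, and 17.3% of the genes tested there were separated in the same way. Of the 6 Mt2 UMIs of APC-KO 1, 4 came from 1 cell, and without it the level was 18.1 CPM, below WT 1. Mt2 had 15 and 2 UMIs in WT and met the count filter only with APC-KO counted in, so its test was partly set by the filter. Mt1 rose by 2.26 (SE 0.35, adjusted p 0.00254) and Mt2 by 2.97 (SE 0.45, adjusted p 0.00238) on the log2 scale in edgeR, where 0.654% of 6573 genes passed and 0.548% rose. Both calls were lost without WT 1 (3.16 for Mt1 and 4.69 for Mt2), without WT 2 (1.68 and 2.26) and without APC-KO 2 (1.36 and 2.11). The DESeq2 Wald test did not call Mt1 (2.17) and gave no adjusted p for Mt2 (2.89).

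GOBLET, the mature goblet cells, had the lowest mean Mt1 level in APC-KO. It had 63.7 and 71.3 CPM in APC-KO against 22.2 and 23.4 CPM in WT, a log2 difference of 1.45 (SE 0.29, adjusted p 0.149, edgeR). In GOBLET-PRE the values were 93.7 and 157 CPM against 54.7 and 24.2 CPM, a log2 difference of 1.78 (SE 0.40, adjusted p 0.515, edgeR). Neither type overlapped between genotypes and neither change passed, in fits where 0.0837% and 0.00974% of genes passed, 0.0335% and 0.00974% as higher, and 20.9% and 19.4% were separated in this way. Mt2 was at 19.6 and 13.2 CPM in GOBLET of APC-KO against 3.70 and 1.42 CPM in WT, with log2 fold changes of 2.48 (SE 0.71, adjusted p 0.274) in GOBLET and 2.28 (SE 0.37, adjusted p 0.310) in GOBLET-PRE by edgeR. All 4 Mt2 UMIs of GOBLET in APC-KO 1 came from 1 of 28 cells. Without APC-KO 1, Mt1 passed in GOBLET (1.52) and Mt2 in GOBLET-PRE (2.55), and without WT 1 both genes passed in GOBLET-PRE (2.54 for Mt1 and 2.60 for Mt2).

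In the hormone-producing cells the difference came with APC-KO 2. EC, which carried the serotonin cell markers, had 43.9 and 169 CPM of Mt1 in APC-KO against 37.5 and 21.4 CPM in WT (log2 fold change 2.10, SE 0.45, adjusted p 0.329, edgeR). Of the 12 Mt1 UMIs of APC-KO 1, 7 came from 1 cell, and without it the level was 18.8 CPM, below both WT libraries. NON-EC had 0 and 176 CPM against 38.9 and 18.9 CPM (2.34, SE 0.47, adjusted p 0.0982, edgeR). edgeR called 0 of 8690 genes in EC (729 at an unadjusted p under 0.05, and 13 by DESeq2) and 0.113% of genes in NON-EC, 0.0628% as higher. Mt1 did not overlap between genotypes in EC, as was so for 18.5% of genes there. The count filter removed Mt2 in both types. With no filter Mt2 passed at 3.21 in EC and 3.16 in NON-EC. Without APC-KO 1, which had 1 Mt2 UMI in EC and 0 in NON-EC, its log2 fold changes were 3.67 and 3.41. Mt2 met the filter of these last fits through APC-KO 2 alone, where it was high, so no call is drawn from them. Mt1 passed without APC-KO 1 in EC (2.50) and NON-EC (2.61), and in NON-EC also without WT 1 (2.89) and without WT 2 (1.80). TUFT, GP and SEC-PRO had fewer than 10 cells in APC-KO 1 and were not fitted. TUFT had 75.7 and 227 CPM of Mt1 in APC-KO against 35.3 and 8.83 CPM in WT, and SEC-PRO 117 and 441 CPM against 187 and 107 CPM.

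Over all kept cells outside the Paneth lineage, Mt1 was at 137 and 62.3 CPM in the WT libraries and at 137 and 524 CPM in APC-KO, so that APC-KO 1 equalled WT 1. The log2 fold changes of 1.81 (SE 0.69) for Mt1 and 2.57 (SE 0.94) for Mt2 had an adjusted p of 1.00 each, where 14.4% of genes were separated between genotypes and edgeR called 0 of 13237 genes (468 at an unadjusted p under 0.05, and 17 by DESeq2). Mt2 passed without APC-KO 1 (3.32). TMM scaling put Mt1 at 132 and 59.8 CPM in WT, below the 151 and 519 CPM of APC-KO. This sum moves with the mix of types. GOBLET-PRE, a type with little Mt1, made up 51.7% of the kept cells of APC-KO 1 against 17.3% to 32.6% in the other libraries. With equal weight for the 7 fitted types, Mt1 was at 145 and 96.0 CPM in the WT libraries and at 352 and 410 CPM in APC-KO, and Mt2 at 16.0 and 12.5 CPM and at 43.7 and 95.2 CPM. Both APC-KO libraries were then above both WT libraries, with a two-sided exact permutation p of 0.333 for each gene, the smallest that 2 libraries against 2 allow.

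**Figure D3:**
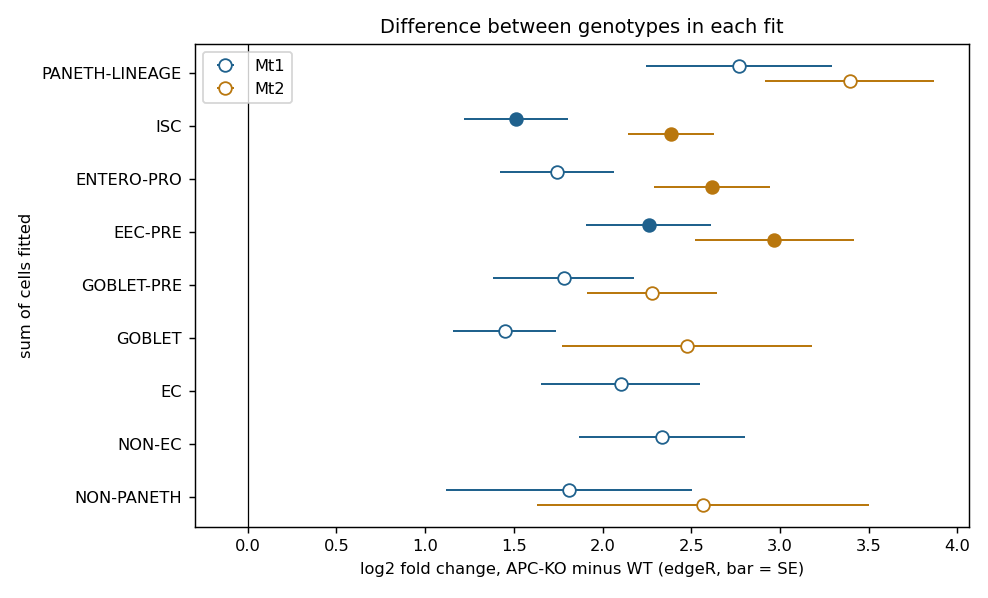
Log2 fold change of Mt1 and Mt2, APC-KO minus WT, in each edgeR fit, with bars of 1 SE; filled points passed an adjusted p of 0.05 and open points did not, except that the Paneth lineage is drawn open because its contrast chose the genes. All points lie to the right of 0, from 1.45 to 3.39, and Mt2 has no point in EC and NON-EC.

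RNA outside the cells carried Mt1 and Mt2 in the same direction. Barcodes with 1 to 50 UMIs, taken as free RNA, had 241 and 157 CPM of Mt1 in WT, against 424 and 613 CPM in APC-KO. For Mt2 they had 22.6 and 26.7 CPM in WT, against 47.0 and 153 CPM in APC-KO. The make-up of free RNA differed in APC-KO 1. Its enterocyte markers summed to 9285 CPM, against 3698.5 and 3937.5 CPM in WT and 4372.5 CPM in APC-KO 2. Its stem markers summed to 307 CPM, against 967 and 955 CPM in WT and 1043 CPM in APC-KO 2. The part of this in the Mt1 and Mt2 values was not tested. For Mt1, ISC and ENTERO-PRO stood above free RNA in every library, ISC at 1.65, 1.72, 1.99 and 1.65 times its Mt1 level in WT 1, WT 2, APC-KO 1 and APC-KO 2. The Mt1 level of the other types was below it in every library, apart from PANETH of APC-KO 1. For Mt2, ISC was at 2.33, 1.54, 0.842 and 1.91 times free RNA, and ENTERO-PRO at 0.991, 1.30, 3.89 and 1.04 times. Also above it for Mt2 were SEC-PRO of WT 1 (1.89) and, in APC-KO 1, PANETH (2.59), PANETH-PRE (1.59) and EEC-PRE (1.07). Mt1 in EC was at 0.156, 0.136, 0.104 and 0.275 times its free RNA level and in TUFT at 0.146, 0.0562, 0.179 and 0.371 times. The summed goblet markers, which these types should lack, stood at 0.134, 0.0924, 0.0671 and 0.253 times their free RNA level in EC and at 0.0847, 0.0587, 0.0347 and 0.443 times in TUFT. In both types the ratios of Mt1 and of the goblet markers were highest in APC-KO 2. Mt1 in PANETH was at 0.244, 0.209 and 0.282 times free RNA in WT 1, WT 2 and APC-KO 2 and at 2.19 times in APC-KO 1. The part of free RNA in the low levels of EC, NON-EC and TUFT was not tested, beyond a subtraction of free RNA at 5% of each sum, which left Mt1 separated between genotypes in 6 of the 10 types outside the Paneth lineage and Mt2 in 4.

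**Figure D4:**
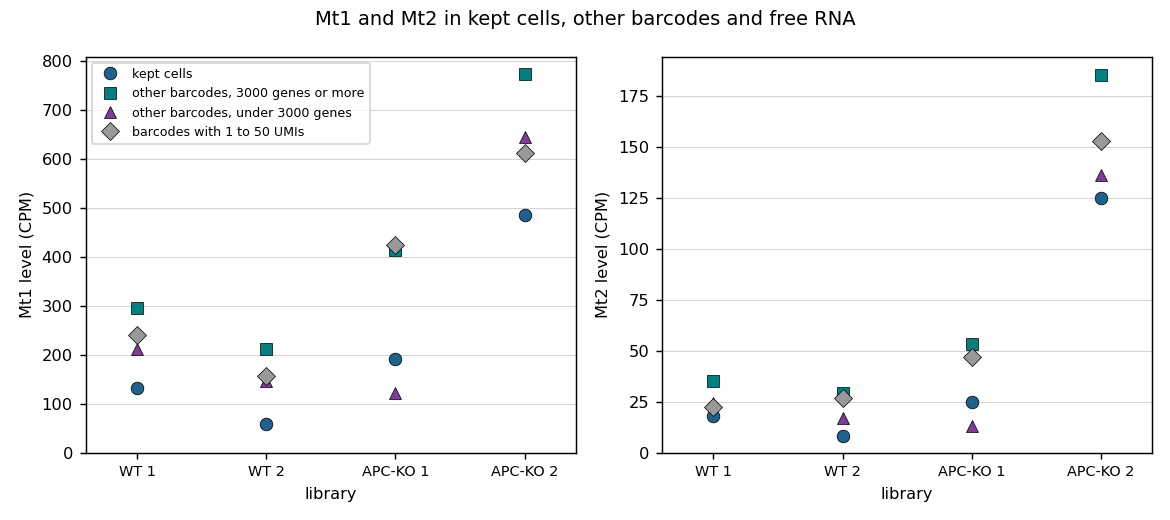
Level of Mt1 (left) and Mt2 (right) in CPM in kept cells, in other barcodes with at least 1000 UMIs split at 3000 genes, and in barcodes with 1 to 50 UMIs, for each library. Free RNA and the barcodes with 3000 genes or more are higher in both APC-KO libraries than in either WT library.

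Mt1 and Mt2 moved together across cell types. Over the 45 sums of a type and a library with at least 10 cells, log2(CPM + 1) of the 2 genes had a Pearson correlation of 0.92, and over the 24 WT sums one of 0.90. The sums share libraries and depth, so no p is given. Their ratio was not constant. Over all kept cells, Mt1 UMIs were 7.39, 7.43 and 7.69 times those of Mt2 in WT 1, WT 2 and APC-KO 1, and 3.90 times (interval 3.75 to 4.05) in APC-KO 2. In ISC the ratio was 7.59 and 6.57 in WT and 3.47 in APC-KO 2, and in SEC-PRO it was 4.38 and 5.17 in WT and 3.09 in APC-KO 2. In ENTERO-PRO it was 16.2 and 7.94 in WT, 6.85 in APC-KO 1 and 5.62 in APC-KO 2. In GOBLET-PRE it was 13.0, 8.45, 9.28 and 7.89 in the same order. The ratio was thus lowest in APC-KO 2 in each of these types, by little in GOBLET-PRE. In single ISC cells thinned to 2000 UMIs, Mt2 was found in 11.5% of WT 1 cells with Mt1 and in 5.05% of those without it, and in 41.8% and 21.1% in APC-KO 2. Of the 11 pairs of a type and a library compared, ENTERO-PRO of WT 2 went the other way, with 0 of 27 cells with Mt1 and 8.11% of 37 cells without it.

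**Figure D5:**
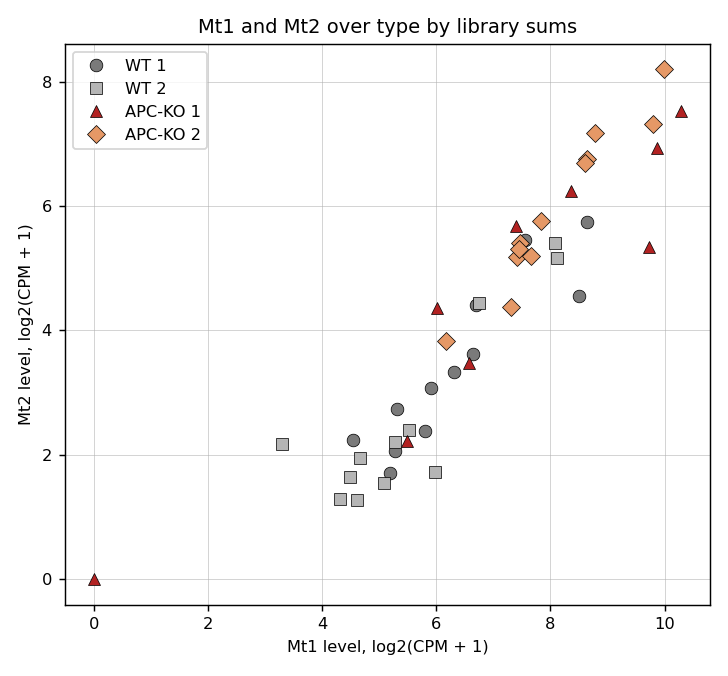
Mt2 against Mt1, both as log2(CPM + 1), for each cell type and library with at least 10 cells; 1 point is 1 summed type. The points rise together (Pearson 0.92 over 45 sums), and the point at the origin is NON-EC of APC-KO 1 with no UMI of either gene.

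The genes whose levels over the 45 sums were most like the mean of Mt1 and Mt2, among 5993 genes with a mean of at least 20 CPM, were Ccnb2 (a mitotic cyclin, Pearson 0.80), H2-Aa (0.78), H2-Eb1 (0.77), Cd74 (0.77), Otc (0.76), Kitl (0.75), Atp5k (0.74), Tfrc (0.74), Cox7a1 (0.73) and Nlrp6 (0.73). H2-Aa, H2-Eb1 and Cd74 serve MHC class II antigen presentation, Otc is an enzyme of the urea cycle and Tfrc is the transferrin receptor. Over the 24 WT sums the list was Cdca3 (0.86), Cftr (0.86), Dmbt1 (0.83), Gcat (0.82), Cd74 (0.82), Birc5 (0.82), Tomm5 (0.82), H2-Eb1 (0.81), Tfrc (0.81) and Mki67 (0.80). The lists shared 3 genes, Cd74, H2-Eb1 and Tfrc. The correlations describe sums that share libraries and cell types.

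Among other genes of metal handling and of the known inducers of metallothioneins, 1 passed the test in any fit. Of 93 such genes in lists of zinc transporters, copper and iron handling, glucocorticoid, NRF2, heat shock and STAT3 responses, 45 to 86 were tested in each fit outside the Paneth lineage, and edgeR called 0 of them in every one. At an unadjusted p under 0.05 there were 3 to 12 per fit, from 3.90% of those tested in GOBLET-PRE (7.95% of all genes) to 24.5% in GOBLET (11.2% of all genes). DESeq2 called 0 where it gave an adjusted p. In the Paneth lineage 1 of 74 passed: Cybrd1, a duodenal ferric reductase of iron uptake, fell by 2.54 on the log2 scale (SE 0.36, adjusted p 0.0127, edgeR), from 17.7 and 17.6 CPM in WT to 0 and 5.48 CPM in APC-KO. The 0 in APC-KO 1 allows up to 10.4 CPM (3 counts). In WT, Cybrd1 was higher in PANETH (20.3 CPM in both libraries) than in PANETH-PRE (11.4 and 4.58 CPM). PANETH-PRE gave 602 of the 876 lineage cells of APC-KO 2, against 122 of 228 in WT 1 and 98 of 298 in WT 2. The sum thus moves with the mix of these types, and the part of the mix in the fall was not tested. In the lineage 15 genes (20.3%, against 14.8% of all genes) had an unadjusted p under 0.05 and DESeq2 called 0, with an adjusted p for 9 of the 74.

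Mtf1, the zinc sensor, had 17.2 and 22.7 CPM in ISC of WT, against 0 and 13.5 CPM in APC-KO, where 1 library at 0 allows up to 39.6 CPM. Its log2 fold change was -0.47 in ISC, -0.60 in ENTERO-PRO and 0.01 in the Paneth sum, and no fit called it. Slc30a1, the plasma membrane zinc exporter and another MTF-1 target, had 7.59 and 4.97 CPM in ISC of WT, against 13.2 and 7.02 CPM in APC-KO (log2 fold change 0.16). The groups of Slc30a1 overlapped. Slc30a2, a zinc transporter of secretory vesicles, was highest in PANETH-PRE (21.1 and 38.9 CPM in WT) and PANETH (21.7 and 21.3 CPM), with 21.5 and 24.3 CPM in the WT lineage, against 6.94 and 26.5 CPM in APC-KO.

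Among the zinc importers, Slc39a5 was highest in WT in ENTERO-PRO (89.6 and 132 CPM) and ISC (42.6 and 49.7 CPM), where Mt1 was highest too. Slc39a4 was highest in GOBLET (51.8 and 59.5 CPM) and Slc39a7, a transporter of the secretory pathway, in GP (173 and 193 CPM). Slc39a14, an importer induced by inflammation, had 52.5 and 54.9 CPM in GP and 53.6 and 50.3 CPM in PANETH-PRE of WT, the highest means, which overlapped. In ISC their log2 fold changes lay between -0.32 and -0.07, and none passed. The copper importer Slc31a1 had 46.4 and 66.0 CPM in ISC of WT, against 66.0 and 39.6 CPM in APC-KO (-0.35), and the copper exporter Atp7a was highest in NON-EC of WT (41.7 and 37.8 CPM).

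The glucocorticoid receptor gene Nr3c1 was highest in ISC, ENTERO-PRO (115 and 148 CPM) and EC (127 and 128 CPM) of WT. In ISC it had 137 and 148 CPM in the WT libraries, against 79.2 and 111 CPM in APC-KO (log2 fold change -0.34). Its targets Tsc22d3 and Fkbp5 had log2 fold changes of -0.37 and 0.34 there, and neither passed. Nqo1, an NRF2 target, was highest in ENTERO-PRO of WT (39.5 and 52.1 CPM) with a log2 fold change of -0.52, and Hmox1 was at 2.05 CPM or lower in each type over the 4 libraries pooled. Stat3 was highest in EC of WT (mean 116 CPM). Socs3, its feedback inhibitor, had 24.6 and 37.8 CPM in NON-EC and 25.2 and 36.1 CPM in GOBLET-PRE of WT, and neither passed in any fit.

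The genes around the pair on chromosome 8 were looked at as well. Within 250 kb of Mt1, 3 to 9 other genes were tested per fit, and edgeR and DESeq2 called 0 of them in each (0 or 1 per fit at an unadjusted p under 0.05). Herpud1, the most counted of these with 14549 UMIs, had log2 fold changes of -0.19 in ISC, 0.63 in ENTERO-PRO and -0.34 in the Paneth lineage. Nudt21 (4789 UMIs) was at -0.33 in GOBLET. Mt3, upstream of Mt1 and Mt2, had 8.60 and 4.39 CPM in the Paneth lineage of WT, against 10.4 and 16.4 CPM in APC-KO, with a log2 difference of 0.56 (adjusted p 0.560, edgeR). In EC the value of Mt3 was 2.82 (adjusted p 0.329, edgeR).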

How the data were processed

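UMI counts per gene and barcode were deposited unfiltered by the authors, made with Cell Ranger 3.0.2 and STAR on mm10, per the submitters' processing notes; the sources used here name neither the annotation nor the strand setting. The authors' deposited per-cell tables also hold other values (library and cell type names), counts of UMIs and genes, and a percent of mitochondrial UMIs. Kept cells had 901 to 2999 genes and at most 7.00% mitochondrial UMIs; doublet removal was not stated, and libraries shared 1 to 8 kept barcodes per pair. UMIs were summed per type and library and compared with edgeR 4.0.16 (R 4.3.3; TMM, filterByExpr, quasi-likelihood test, Benjamini-Hochberg adjustment over all genes of a fit at 0.05) where each library had at least 10 cells. DESeq2 1.42.0 was an alternative, as were no filter, a replicate block, leaving out each library, cells of at least 2000 UMIs, thinning and subtracting free RNA. On simulated data 81.4% (Paneth lineage) to 96.9% (GOBLET-PRE) of genes changed by 2 (log2) were recovered. These counts were drawn with 1 dispersion for all genes and no library that stands apart. The shares therefore do not give the power for Mt1 or Mt2 in the real data. Genes named were the metallothioneins, 16 genes of metal and stress responses, list genes past the threshold, the 10 most like in each set and genes within 250 kb. Members and lists were chosen with earlier results of these data known.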

Additional observations from a re-analysis of the deposited data

Results flagged for a closer look

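Mt1 and Mt2 were higher in APC-KO than in either WT library in barcodes that enter no cell type sum. In barcodes with 1 to 50 UMIs, Mt1 stood at 424 CPM in APC-KO 1 and 613 CPM in APC-KO 2, against at most 241 CPM in WT, and Mt2 at 47.0 and 153 CPM against at most 26.7 CPM. Barcodes outside the authors' tables with at least 1000 UMIs and 3000 genes or more numbered 1704 in APC-KO 1 and 681 in APC-KO 2. They had 414 and 774 CPM of Mt1, against at most 296 CPM in WT, and 53.0 and 185 CPM of Mt2, against at most 35.1 CPM. In such barcodes with under 3000 genes, APC-KO 2 had 646 CPM of Mt1 and 136 CPM of Mt2, against at most 211 and 24.2 CPM in WT. APC-KO 1 had 122 and 13.0 CPM there, below WT, and 46.2% of those UMIs were mitochondrial. These barcodes carry no cell type name, and the differences were not tested. The free RNA of APC-KO 1 also differed from WT in its enterocyte and stem markers, as given above.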

How the results depend on the processing

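Directions held under each alternative run with 2 exceptions. Mt2 in ISC was -0.32 without APC-KO 2. Mt1 in NON-EC without APC-KO 2 was compared with 0 UMIs in APC-KO, and its fitted value of -7.22 depends on the prior count, gives no bound and is not in the ranges below. Where 1 library per genotype is left, it is assumed to vary like the others. Leaving out each library in turn, Mt1 ranged from 1.22 to 1.85 in ISC, 1.47 to 1.97 in ENTERO-PRO, 1.36 to 3.16 in EEC-PRE, 1.21 to 1.52 in GOBLET, 1.26 to 2.54 in GOBLET-PRE, 0.61 to 2.55 in EC, 1.80 to 2.89 in NON-EC, 0.65 to 2.49 outside the Paneth lineage and 1.65 to 3.47 in it, and Mt2 from -0.32 to 2.67 in ISC, 2.31 to 2.83 in ENTERO-PRO, 2.11 to 4.69 in EEC-PRE, 1.85 to 3.09 in GOBLET, 1.68 to 2.60 in GOBLET-PRE, 0.45 to 3.32 outside the Paneth lineage and 2.73 to 4.83 in it. By DESeq2, Mt2 had no adjusted p in ISC (1.95) and in EEC-PRE (2.89). Other calls lost were Mt2 in ENTERO-PRO with the replicate block (2.57) and Mt1 in EEC-PRE by DESeq2 (2.17). Calls gained with no filter were Mt1 in GOBLET (1.39), GOBLET-PRE (1.75), ENTERO-PRO (1.63), EC (2.06) and NON-EC (2.30) and Mt2 in GOBLET-PRE (2.24), EC (3.21) and NON-EC (3.16). Calls gained with the replicate block were Mt1 in GOBLET (1.42) and GOBLET-PRE (1.87) and Mt2 in GOBLET-PRE (2.23). DESeq2 called Mt1 in GOBLET-PRE (1.77) and ENTERO-PRO (1.77) and Mt2 in GOBLET-PRE (2.23); its size factors gained Mt1 in ENTERO-PRO (1.76) and thinning Mt1 in GOBLET-PRE (1.94). The cause of these changes was not tested. The crossed block, added after the data were seen because same-numbered libraries deviated in opposite directions (r = -0.348 over 13237 genes), gained Mt1 in EC (1.90) and called 132 genes there and 68 in ISC. Genes called varied with the setting: from 0 to 405 in EC (0 in the main result), 0 to 285 in EEC-PRE (43), 2 to 392 in ENTERO-PRO (5), 0 to 79 in GOBLET (5), 0 to 280 in GOBLET-PRE (1), 16 to 786 in ISC (350), 1 to 344 in NON-EC (9), 0 to 233 outside the Paneth lineage (0) and 0 to 477 in it (57). With log2(CPM + 10), 5 of the 10 genes most like the pair were shared, and 8 of 10 over WT. Few cells in APC-KO 1 limit every comparison.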
